A study of Mus musculus with 6 samples.

Results

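The 7 genes described here carry out peptide presentation on major histocompatibility complex (MHC) class II: H2-Aa, H2-Ab1, H2-Eb1, H2-DMa, H2-DMb1, Cd74 and Ciita. They were taken by symbol, and 7 of 7 were found in the deposited gene list. Transcripts were counted by droplet sequencing in single non-cardiomyocyte cells of the mouse heart, sorted as live by Calcein-AM and DAPI. The 6 libraries came from C57BL/6JRj mice (WT) and from B6.Cg-Trpm4tm1.2-PG mice (KO), in which the calcium-activated cation channel gene Trpm4 is targeted in the germ line. Each genotype was sampled at 24 h after a sham operation, and at 24 h and 72 h after the left anterior descending artery was tied off (ligation), which causes an infarct. All mice were males of 8 to 12 weeks, all were operated on, and each library pooled the cells of 4 hearts. With 1 library in each group, no difference has a replicate check, no test was made, and every interval covers counting error only.

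MHC class II molecules hold peptides from ingested proteins at the cell surface, where CD4 T cells read them. The alpha and beta chains assemble in the endoplasmic reticulum with the invariant chain, which blocks the groove until proteases remove it and the DM heterodimer swaps its remnant for a peptide. Dendritic cells and B cells make the pathway constantly, whereas macrophages vary it with their origin and with signals such as interferon-gamma, and the coactivator CIITA sets transcription of nearly all of its genes. In the heart, resident macrophages differ in their class II level, and recruited monocytes can gain class II as they mature.

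H2-Aa encodes the alpha chain and H2-Ab1 the beta chain of I-A, and H2-Eb1 encodes the beta chain of I-E, whose alpha chain gene is defective in the H2 haplotype of C57BL/6 mice. H2-DMa and H2-DMb1 encode the DM heterodimer, Cd74 the invariant chain and Ciita the coactivator. In the GENCODE M21 annotation of GRCm38, 5 members lie close together on chromosome 17, with H2-DMa at chr17:34119541-34139101, H2-DMb1 at chr17:34153072-34160230, H2-Ab1 at chr17:34257689-34269419, H2-Aa at chr17:34282744-34287823 and H2-Eb1 at chr17:34305867-34316674. Ciita lies at chr16:10480059-10528418. Each span is the whole gene, exons, introns and untranslated regions included, and 3' counting reads the end of the transcript only.

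The promoters of class II genes carry an ordered pair of elements, the X box bound by the RFX complex and the Y box bound by NF-Y, on which CIITA assembles. The stretches that hold the pair are shown as a description, and no link between them and the levels below was tested. RefSeq promoter windows of GRCm38.p6 were searched on both strands of the 250 bases before each start for GNAAC, a letter core of the X box, followed after 20 to 30 bases by GATTGG, the core of the Y box. This pattern was set after these promoters had been read, and 181 of 32851 windows (0.551%) held it, against 14.6% that held GATTGG alone. It was found in H2-Aa, H2-Eb1 and H2-DMb1, and outside the members in H2-Oa, H2-Ob and H2-Eb2. It was not found in H2-DMa or in H2-DMb2. No promoter window was available for H2-Ab1 or Ciita, so neither was searched, and the Cd74 window was not used. The stretches found in H2-DMb1 and H2-Oa overlap their annotated genes and are not printed. The windows below read 5′ to 3′ along the gene's own strand, with both cores in capitals. They lie at chr17:34287857-34287914 on the minus strand for H2-Aa, and on the plus strand at chr17:34305766-34305822 for H2-Eb1, chr17:34238808-34238862 for H2-Ob and chr17:34325533-34325589 for H2-Eb2.
H2-Aa: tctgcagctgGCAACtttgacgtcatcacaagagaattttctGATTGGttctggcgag
H2-Eb1: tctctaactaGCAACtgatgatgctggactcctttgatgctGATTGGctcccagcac
H2-Ob: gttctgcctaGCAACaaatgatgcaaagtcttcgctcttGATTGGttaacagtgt
H2-Eb2: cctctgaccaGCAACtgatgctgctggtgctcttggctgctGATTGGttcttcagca
The gap between the cores was 27 bases in H2-Aa and 26 in H2-Eb1. The order of the cores was set by the search, and only matches on the gene's own strand are printed, so shared order and direction are no result. A match describes letters, and no binding was measured.

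Of 34940 deposited cells, 32085 were kept, 3365 to 6824 per library. The median depth was 3065 to 7978 UMIs per cell in 5 libraries and 1353 in KO at ligation 72 h, where 53.8% of cells had under 1500 UMIs. Library pairs shared 3 to 14 cell barcodes. Cells were clustered without the class II genes, and clusters were named from marker lists, so a cluster's name does not rest on a member. Trpm4 stood at 8.51, 5.51 and 4.18 CPM (counts per 1000000 UMIs) in the WT libraries at sham 24 h, ligation 24 h and ligation 72 h. The KO libraries had 5.96, 3.45 and 2.56 CPM, lower at each point but not 0, and the labels do not give the deleted segment, so 3' tags may not check the knockout.

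The 7 genes were most abundant in dendritic cells, then in B cells, then in monocyte/macrophage cells. Their summed level, in CPM over all UMIs of the class, ran from 37420.2 to 56630.3 CPM in dendritic cells over the 6 libraries, with a median of 43058. It ran from 23557 to 33230.2 CPM in B cells, over the 5 libraries with at least 20 B cells, and from 2381 to 7142 CPM in monocyte/macrophage cells. The ranges of these 3 classes did not overlap. In fibroblasts, which are not professional presenting cells, 5 libraries had 24.5 to 57.2 CPM, and in neutrophils the same 5 had 131 to 194 CPM. The KO library at ligation 72 h had 4546 and 691 CPM in those classes and is described apart below.

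**Figure D1:**
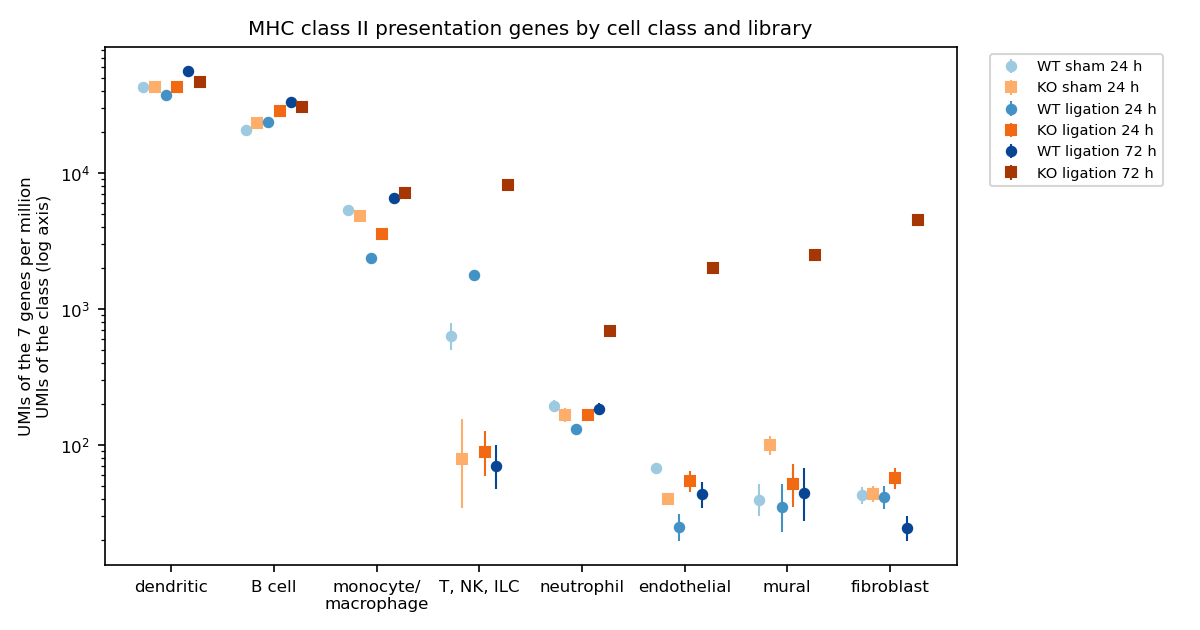
Summed level of the 7 genes in CPM of each cell class (log axis), 1 point per library with its exact 95% Poisson interval, circles for WT and squares for KO. Dendritic cells and B cells lie above monocyte/macrophage cells in each library, and the KO library at ligation 72 h is high in the 5 classes to the right.

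Monocyte/macrophage cells held 43.0% to 57.6% of a library's member UMIs. Dendritic cells held 31.5% to 45.8% from only 1.06% to 4.37% of the cells. B cells added 1.53% to 17.0%, the most in WT at ligation 24 h. Each library's total thus came mainly from a large class at a moderate level and a small class at a high level.

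Within the monocyte/macrophage class the genes were spread unevenly over cells. Cells were thinned to 1000 UMIs each, and a cell was called class II high at 10 or more member UMIs. Class II high cells made up 16.8% of monocyte/macrophage cells in WT sham, 19.2% in KO sham, 7.81% in WT at ligation 24 h, 10.6% in KO at ligation 24 h, 18.7% in WT at ligation 72 h and 23.8% in KO at ligation 72 h. Without thinning, at 1% or more of a cell's own UMIs, the shares were 16.0%, 19.0%, 7.20%, 10.8%, 18.4% and 22.9% in the same order. Both libraries at ligation 24 h were thus low, and their exact intervals, 5.94% to 10.0% in WT and 9.11% to 12.2% in KO, lay below those of the other 4. Thinning left out 4 to 32 cells of this class per library and 989 in KO at ligation 72 h. In dendritic cells 73.7% to 90.5% were high, and in B cells 82.9% to 98.9%. No neutrophil was high in the 5 libraries other than KO at ligation 72 h, which allows shares of up to 0.0884% to 0.455%.

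In monocyte/macrophage cells the chain genes were lowest at 24 h after ligation in both genotypes and highest, or near their sham level, at 72 h. H2-Ab1, the I-A beta chain, had 881 CPM in WT sham, 752 in KO sham, 297 in WT at ligation 24 h, 504 in KO at ligation 24 h, 1022 in WT at ligation 72 h and 1171 in KO at ligation 72 h. H2-Aa, its alpha partner, had 746, 674, 259, 403, 888 and 1034 CPM in the same order of libraries. H2-Eb1, the I-E beta chain, had 703, 642, 221, 313, 768 and 858 CPM. For each of the 3 chain genes the 2 libraries at ligation 24 h were below all other 4.

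Cd74, the invariant chain, followed the chains less steeply, with 2716, 2492, 1322, 2041, 3572 and 3681 CPM. Ciita, the coactivator, was sparse, with 14.3, 10.999, 5.77, 7.89, 13.9 and 18.1 CPM from 52 to 424 UMIs. Both had the same pair of low libraries as the chains. The DM genes moved less, and H2-DMb1 had the same pair of low libraries while H2-DMa did not. H2-DMa, the DM alpha chain, had 199, 182, 177, 184, 185 and 211 CPM, and H2-DMb1, the beta chain, had 146, 126, 100.004, 110.5, 163 and 169 CPM. H2-DMa therefore spanned a narrow range over all 6 libraries.

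**Figure D2:**
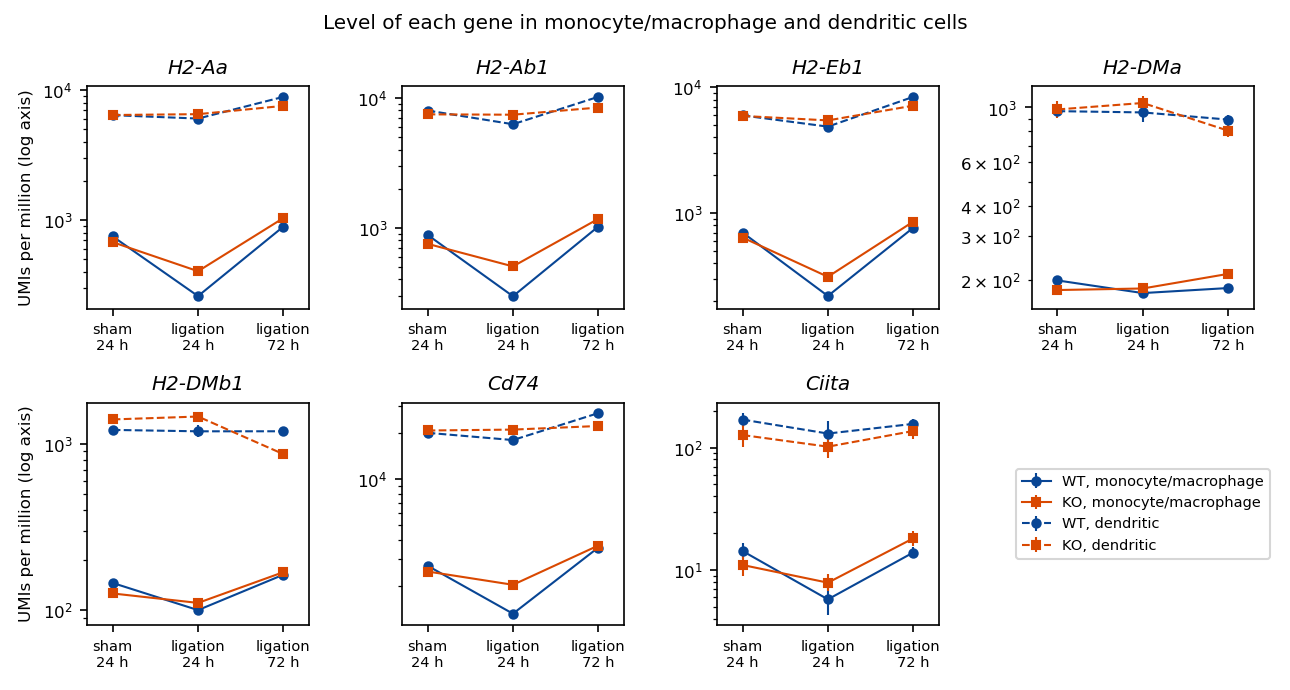
Level of each gene in CPM (log axis, with its own scale per panel) in monocyte/macrophage cells (solid lines) and dendritic cells (dashed lines) of WT (circles) and KO (squares), with exact 95% Poisson intervals. In monocyte/macrophage cells the chain genes, Cd74 and Ciita dip at ligation 24 h and H2-DMa stays between 177 and 211 CPM, while the dendritic lines are flatter.

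In WT, ligation at 24 h against sham, 5 of 7 members were at least 2-fold lower in monocyte/macrophage cells, where 3.64% of the 9811 genes with 50 or more UMIs were that much lower. The log2 ratios were -1.67 for H2-Eb1 (95% interval -1.74 to -1.60), -1.57 for H2-Ab1 (-1.63 to -1.51), -1.53 for H2-Aa, -1.31 for Ciita and -1.04 for Cd74. H2-DMb1 stood at -0.54 and H2-DMa at -0.17. The median over all genes was -0.11, so H2-DMa was near the median gene. The summed ratio was -1.18 (-1.21 to -1.16).

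In KO, the same comparison gave smaller sizes, and 1 of 7 members, H2-Eb1, was at least 2-fold lower, against 6.61% of all genes. H2-Eb1 stood at -1.04 (-1.09 to -0.98), H2-Aa at -0.74, H2-Ab1 at -0.58, Ciita at -0.48 and Cd74 at -0.29, with a median of all genes of -0.27. H2-DMa was at 0.02. The summed ratio was -0.45 (-0.47 to -0.44). It depended on the cells counted. With each cell thinned to equal depth it was -0.99, near the -1.16 of WT. At the coarser clustering it was 0.39, against -0.66 in WT. There the resident macrophage cluster described below stayed unnamed and left the class. Neither genotype's change has a replicate, and whether the changes differ between genotypes was not tested.

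From 24 h to 72 h after ligation, 5 of 7 members were at least 2-fold higher in WT (all genes 10.0%) and 4 of 7 in KO (all genes 7.10%). In WT the log2 ratios were 1.80 for H2-Eb1, 1.78 for H2-Aa and H2-Ab1, 1.43 for Cd74 and 1.27 for Ciita, against 0.71 for H2-DMb1 and 0.07 for H2-DMa. KO had 1.45, 1.36, 1.22, 0.85 and 1.20 for the first 5 of these genes and 0.61 and 0.20 for the DM pair. The summed ratios were 1.47 in WT (1.45 to 1.49) and 1.003 in KO (0.99 to 1.02). Both comparisons of a genotype share its ligation 24 h library, so the low at 24 h and the gap to 72 h are not independent. All 4 counts of members were the same with only cells of 1500 or more UMIs and without cluster 6 described below.

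The genotype difference was largest at 24 h after ligation. There, KO monocyte/macrophage cells had a summed level 0.58 log2 units above WT (0.56 to 0.60), 3564 against 2381 CPM, and 7 of 7 members had ratios above 0. H2-Ab1 had the largest ratio, 0.76 (0.70 to 0.83), then H2-Aa at 0.64, Cd74 at 0.63 and H2-Eb1 at 0.51, while H2-DMa at 0.06 (-0.02 to 0.15) could not be told from equality at this depth. No member was 2-fold higher, and 0.442% of genes were. At sham 24 h the sum was 0.15 log2 units lower in KO, with 0 of 7 members above 0 and none 2-fold lower (all genes 0.471%). At ligation 72 h it was 0.11 above WT with 7 of 7 above 0 and none 2-fold higher (all genes 2.71%).

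Only the difference at ligation 24 h kept its sign under all 10 alternatives, with a range of 0.42 to 0.63. The sham difference became 0.24 when cells were thinned to equal depth and 0.19 as a mean over cells, and the 72 h difference became -0.08 with equal weight for each cluster. In WT sham, 10 of 1115 cells, those of the cycling cluster 27 described below, held 8.99% of the class's member UMIs. In KO sham, 3 of 840 cells, of the same cluster, held 4.19%. The part of these few cells in the sham difference was not tested. Animal, operation, cell recovery and genotype cannot be told apart with 1 pool per group.

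Other cell types' markers in this class were compared between the same libraries. The 14 dendritic markers summed to 137 to 181 CPM in monocyte/macrophage cells, against 1573 to 2306 CPM in dendritic cells. In monocyte/macrophage cells Xcr1 or Ccr7 was at 0 in 3 libraries. Cd209a, at 4.49 to 11.2 CPM, and Flt3, at 1.22 to 5.74 CPM, were found there in every library. The part of dendritic RNA in the result was not tested. The 7 neutrophil markers summed to 396 and 482 CPM at sham, at ligation 24 h to 2122 (WT) and 2909 (KO), and to 177 and 1809 at ligation 72 h. They were above their sham level in both libraries at ligation 24 h, where the members were lowest, but also in KO at ligation 72 h, where the members were highest, and their part in the result was not tested. The 10 B cell markers summed to 24.8 to 85.3 CPM in 5 libraries and to 154 CPM in KO at ligation 72 h.

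The class was made of clusters with different levels. Cluster 15, led by Mgl2, Lyve1, Cbr2 and Cd163, which are known from resident heart macrophages, had 16318 CPM in WT sham and 14062 in KO sham. At ligation 24 h it had 4905 CPM in WT and 5814 in KO, and at 72 h 19973 and 15966. Both libraries at 24 h were therefore below the other 4 within a single cluster. Its cells numbered 217 and 220 at sham, 71 and 118 at 24 h, and 50 and 38 at 72 h. Resident macrophage markers had a median log2 ratio to all other cells of 3.34 in cluster 15. Markers of type 2 conventional dendritic cells had 1.16 there, the highest of the monocyte/macrophage clusters, against 3.23 in the dendritic cluster 13. Mgl2 is also a leading gene of cluster 13, and the part of dendritic cells in cluster 15 was not tested.

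Cluster 5, led by the monocyte genes Plac8, Ifitm6 and Lyz2, had 7279 CPM in WT sham, 5756 in KO sham, 3103 in WT at ligation 24 h, 5855 in KO at ligation 24 h, 9665 in WT at ligation 72 h and 8093 in KO at ligation 72 h. In this cluster the WT library at 24 h was the lowest and the KO library at 24 h was level with KO sham. Cluster 4, led by the chemokine genes Ccl2 and Ccl7, had 3163, 2055, 2616, 3123, 4530 and 2237 CPM, lowest at 24 h within WT but highest at 24 h within KO. Cluster 7, led by Ccl24, Serpinb2 and Saa3, was the poorest at sham and ligation 24 h, with 545 to 941 CPM, and had 2559 and 4456 CPM at 72 h.

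The makeup of the class moved as well. Cluster 4 was 16.4% of WT and 17.3% of KO monocyte/macrophage cells at sham, and 42.7% and 48.5% at ligation 24 h. Cluster 15 was 19.5% and 26.2% at sham, 10.0% and 7.39% at 24 h, and 2.17% and 1.38% at 72 h. It held 45.9% of the class's member UMIs in WT sham and 61.8% in KO sham, but 4.52% and 4.96% at 72 h. At 72 h, the clusters led by Fcrls and Gpnmb (cluster 9), by the interferon-induced Cxcl10 and Irf7 (cluster 16) and by histone genes (cluster 27) held 28.2%, 20.02% and 15.5% of the class's member UMIs in WT. In KO at 72 h the same clusters held 25.6%, 6.18% and 15.6%. Cluster 5 held a steadier part in WT only, with 22.7% at sham, 20.9% at 24 h and 21.8% at 72 h. In KO it held 14.6%, 34.6% and 25.7% at these points. In the cycling cluster 27 the sum was 8989 CPM in WT and 14160.2 in KO at 72 h.

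**Figure D3:**
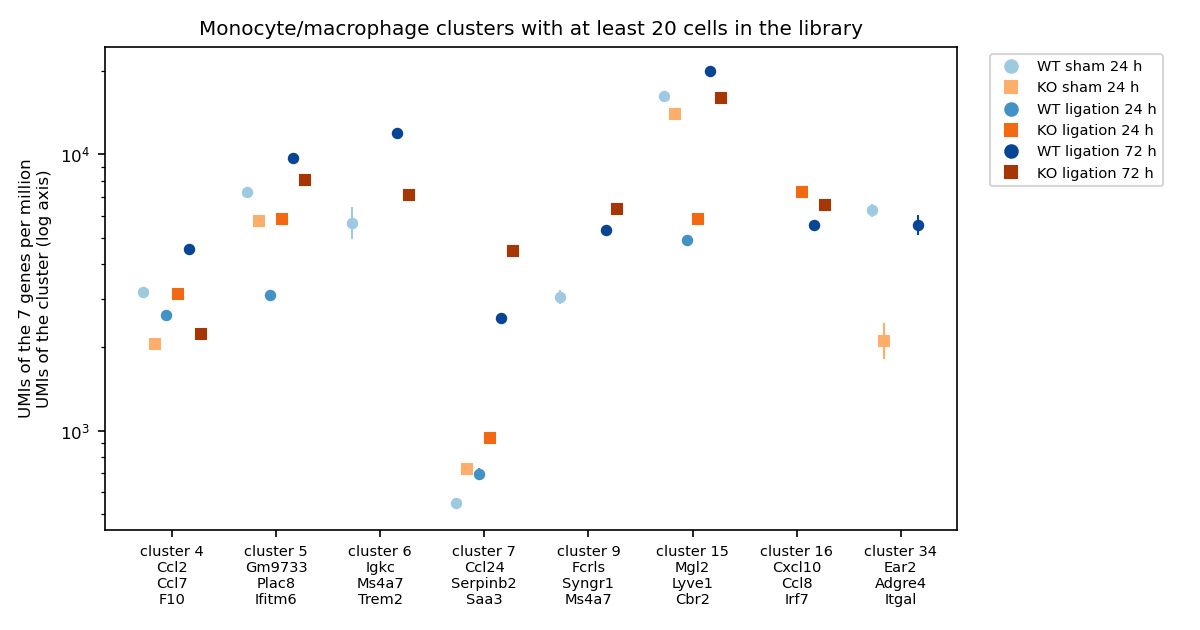
Summed level of the 7 genes in CPM (log axis) in monocyte/macrophage clusters with at least 20 cells in a library and values in at least 3 libraries, with exact 95% Poisson intervals and each cluster's leading genes. Cluster 15 is highest at sham and 72 h and lower in both libraries at ligation 24 h, while in cluster 4 only the WT value is lowest at 24 h within its genotype.

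Cluster 6 held 52.4% of the monocyte/macrophage cells of KO at ligation 72 h, and 1447 of its 1585 cells came from that library. Its median depth was 856 UMIs, and its leading genes were Igkc, an immunoglobulin gene, and the macrophage genes Ms4a7 and Trem2. Its member level was 7116 CPM in that library and 11999 in WT at ligation 72 h. Leaving it out changed the KO to WT ratio at 72 h from 0.11 to 0.13.

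The balance among the genes differed between classes and shifted with time. Per 100 UMIs of the 3 chain genes, the DM pair had 14.8 UMIs in WT sham monocyte/macrophage cells, 14.9 in KO sham, 35.6 in WT at ligation 24 h, 24.2 in KO at ligation 24 h, 13.003 in WT at ligation 72 h and 12.4 in KO at ligation 72 h. Dendritic cells had 10.7 to 12.9 at sham and ligation 24 h, and 7.58 and 7.22 at 72 h. B cells had 4.27 to 6.97. In monocyte/macrophage cells this ratio was highest where the chains, its divisor, were lowest, which restates that the DM genes moved less than the chains.

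Cd74 had 117 and 120.5 UMIs per 100 chain UMIs in monocyte/macrophage cells at sham, 170.2 and 167 at ligation 24 h, and 133 and 120.2 at 72 h. In dendritic cells it had 95.9 to 108, and in B cells 148 to 203. The 3 classes were thus ordered, from dendritic to B cells, in every library. H2-Eb1 per 100 H2-Ab1 UMIs was 62.1 to 85.4 in monocyte/macrophage cells, 73.6 to 84.8 in dendritic cells and 80.8 to 112 in B cells. These are ratios within a library, and capture efficiency differs between genes.

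**Figure D4:**
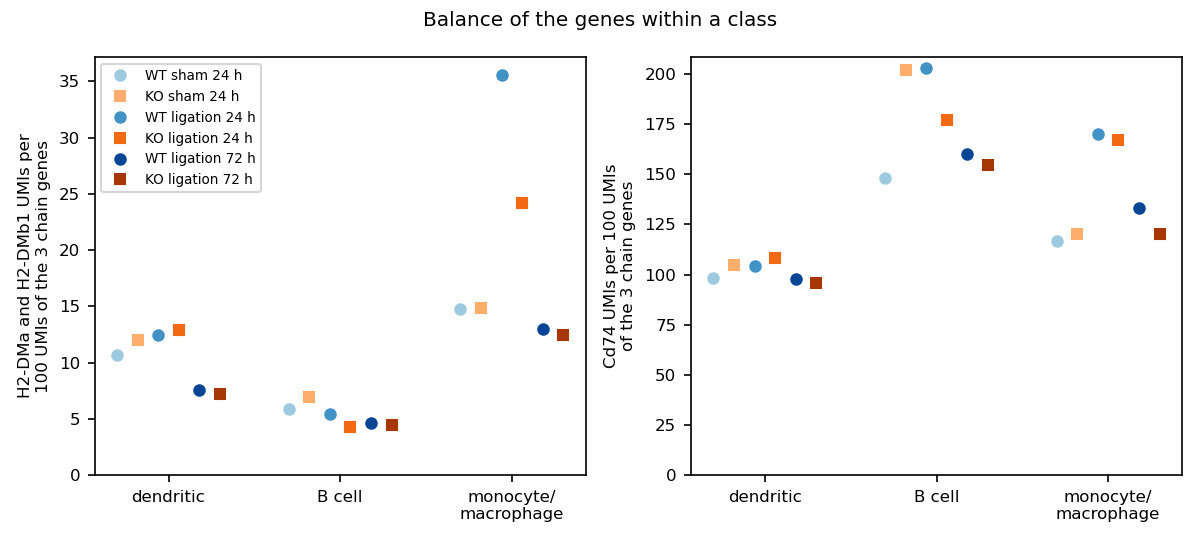
UMIs of H2-DMa and H2-DMb1 (left) and of Cd74 (right) per 100 UMIs of H2-Aa, H2-Ab1 and H2-Eb1, 1 point per library, without error bars. At ligation 24 h the monocyte/macrophage values in the left panel, 35.6 for WT and 24.2 for KO, lie above the other 4 libraries, and the lowest values in B cells.

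Ciita UMIs marked cells rich in the other members. Among monocyte/macrophage cells of at least 1000 UMIs, those with a Ciita UMI had a median of 28, 22, 6, 17, 22 and 12 UMIs of the other 6 members per 1000, in the same order of libraries. Cells without one had a median of 0 in 5 libraries and 2 in KO at ligation 72 h. The median depth with and without one was 9816 and 10108.5 UMIs in WT sham and 8635 and 9873 in KO sham, and differed most in KO at ligation 72 h, with 8597 and 3004. In dendritic cells the medians were 46 to 63 with a Ciita UMI and 4 to 39 without. B cells showed no steady gap, with 22 to 36 against 21 to 34.

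Dendritic cells, cluster 13, were led by Cd209a, Klrd1, Cd7 and Clec10a, and Flt3, Xcr1 and Ccr7 were detected in each library. H2-Ab1 had 7995 CPM in WT sham, 7472 in KO sham, 6270.2 in WT at ligation 24 h, 7424 in KO at ligation 24 h, 10195 in WT at ligation 72 h and 8431 in KO at ligation 72 h. Cd74 had 20026, 20737, 17961, 21020.4, 26923 and 22190 CPM. The WT library at ligation 24 h was the lowest and the WT library at 72 h the highest for both, and 39 to 273 dendritic cells per library stood behind the values.

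In dendritic cells no member reached 2-fold between genotypes or between WT at 72 h and 24 h. The KO to WT log2 ratio of the sum was 0.01 (-0.01 to 0.03) at sham, where 1.67% of genes were 2-fold higher. It was 0.20 (0.18 to 0.23) at ligation 24 h, where 1.28% were. At ligation 72 h it was -0.26 (-0.28 to -0.25), where 0.619% were 2-fold lower. WT at 72 h against 24 h stood at 0.60 (0.58 to 0.62), where 5.12% were 2-fold higher. The WT dendritic cells at 24 h also held B cell genes, with 217 CPM of Igkc and 40.6 CPM of Cd79a, against 0.414 and 0.827 CPM at 72 h, and the part of these in the differences that use this library was not tested. From 24 h to 72 h in WT the chains had 0.56 to 0.78 and Cd74 0.58, while H2-DMa was at -0.10 and H2-DMb1 at 0.00. As in macrophages, the DM genes moved less than the chains. Ccr7 and Fscn1, which mark migrating dendritic cells, had 73.2 and 84.0 CPM in WT at 72 h and 84.8 and 49.4 CPM in KO at 72 h, and at sham 12.8 CPM or less. At 24 h they differed from each other, with 61.0 CPM of Ccr7 beside 4.06 of Fscn1 in WT and 11.2 beside 16.8 in KO.

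B cells had 37 to 192 cells in 5 libraries and 14 in WT sham. Their summed level was 20940.3 CPM in WT sham, 23557 in KO sham, 23755 in WT at ligation 24 h, 28707 in KO at ligation 24 h, 33230.2 in WT at ligation 72 h and 30751 in KO at ligation 72 h. The lowest values were the sham ones and the highest those at 72 h. H2-DMb1 was scarce in B cells, with 49.8 to 110.1 CPM, where its neighbour and near copy H2-DMb2 had 447 to 655. In dendritic cells the order was opposite, with 867 to 1458 CPM of H2-DMb1 and 93.5 to 214 of H2-DMb2. Reads could be split between such similar genes, so each value is uncertain.

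The other class II genes were highest in B cells. H2-Oa and H2-Ob, which form the DO heterodimer that inhibits DM, had medians of 222.5 and 512 CPM in B cells, 74.4 and 46.7 in dendritic cells and 1.41 and 1.39 in monocyte/macrophage cells. H2-Eb2 had 74.2 CPM in B cells and 2.44 in dendritic cells. In KO monocyte/macrophage cells at ligation 72 h, 3 of 3 measured genes of this list were at least 2-fold above WT (all genes 2.71%), with log2 ratios of 1.41 for H2-DMb2, 1.81 for H2-Oa and 1.91 for H2-Ob. The B cell marker list was also highest in that library, as given above, and its part in the result was not tested.

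Genes that feed or control the pathway were read in monocyte/macrophage cells. Of 6 processing genes, none was 2-fold lower in WT at ligation 24 h than at sham (all genes 3.64%), and 3 were 2-fold higher at 72 h than at 24 h (all genes 10.0%). These were Ctsb at 1.58, Lgmn at 1.39 and Ctss, the protease that trims the invariant chain, at 1.0035. In KO over the same interval Ctsb was at 1.04, Lgmn at 0.75, Ctss at 0.52 and Ctsl at -1.18. No processing gene was 2-fold lower at 24 h, where the chains were lowest.

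Of 12 measured transcription genes, 0 were 2-fold apart in any genotype comparison. Few genes of any kind were, with 0.471% 2-fold lower in KO at sham, and 0.442% and 2.71% 2-fold higher at ligation 24 h and 72 h. The count of 0 therefore does not set these genes apart. The subunits of RFX and NF-Y had ratios of -0.41 to 0.45 in WT between ligation 24 h and sham. Irf1, an interferon-induced activator, was at -0.27 there and at 1.16 from 24 h to 72 h, and 0.77 in KO. Socs1, an inhibitor of interferon signalling, was at 1.95 in WT and 1.22 in KO between ligation 24 h and sham. Ifngr1, a receptor chain for interferon-gamma, was at -0.43 and -0.27. Ifng itself had a median of 22.5 CPM in T, NK and innate lymphoid cells and 0 in the monocyte/macrophage class.

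Costimulatory genes did not follow the chains as a group. In WT between ligation 24 h and sham, Pdcd1lg2 (1.82), Cd274 (1.69) and Cd80 (1.18) were higher while Cd40 (-1.22) was lower, out of 7 measured. From 24 h to 72 h Cd80 (-2.74), Cd274 (-2.42), Pdcd1lg2 (-1.82) and Cd86 (-1.46) were lower and Cd40 (2.12) was higher. In the directions of Cd40, 3.64% of all genes were 2-fold lower at 24 h and 10.0% 2-fold higher at 72 h. No share of all genes is given for the opposite directions, so the genes named there are not set against a background. Cd40, which receives help from CD4 T cells, had the same low at 24 h as the class II chains, and Cd80 the opposite. March1, the ligase that removes class II from the surface, had ratios of -0.17 and 0.04.

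The 9 MHC class I genes served as a comparison. In WT between ligation 24 h and sham, their median was -0.14, near the -0.11 of all genes, against -1.31 for the 7 class II members. From 24 h to 72 h their median was 0.78 in WT and 0.42 in KO, with Psmb9, an immunoproteasome subunit, at 1.68 and 1.01.

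The KO library at ligation 72 h had the highest member level outside the presenting cells in fibroblasts, endothelial cells, mural cells, neutrophils and the class of T, NK and innate lymphoid cells. Fibroblasts there had 4546 CPM of the 7 members, against 24.5 in WT at ligation 72 h, and 6 of 6 members with UMIs in both libraries were at least 2-fold higher, where 9.46% of genes were. Ciita had 36 UMIs in 1281 KO fibroblasts and none in 159 of WT, which allows up to 0.855 CPM. Endothelial cells had 2012 against 43.5 CPM, mural cells 2499 against 44.8, and T, NK and innate lymphoid cells 8252 against 70.3. Neutrophils had 691 against 184 CPM. All 5 classes were thus above WT, but by very different amounts. Class sums were also high in other libraries, but from few barcodes. T, NK and innate lymphoid cells had 1787 CPM in WT at ligation 24 h (74 cells) and 633 in WT sham (20 cells). The 65 cardiomyocyte barcodes of KO at ligation 24 h had 4296 CPM, beside 4884 in 180 of KO at ligation 72 h. Cd74 was found in 7 of the 74 cells, 3 of the 20 and 8 of the 65 barcodes. In KO at ligation 72 h it was found in 193 of 260 T, NK and innate lymphoid cells and 93 of 180 cardiomyocyte barcodes.

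The signal was unevenly spread over cells. Of 711 KO fibroblasts thinned to 1000 UMIs, 19.5% were class II high (unthinned 17.6%), while the median fibroblast had 2 member UMIs, and no fibroblast was high in the other 5 libraries. Of the fibroblast clusters, cluster 23, led by Scn7a, Fxyd1 and Sfrp1, with 384 of its 413 cells from this library, had 8091 CPM. Cluster 10, led by Cthrc1 and Col1a1, had 3035, and cluster 12, led by Clec3b, had 482 from 28 cells. Cluster 23 scored second for the monocyte/macrophage class. Resident macrophage markers had a median log2 ratio to all other cells of 0.36 in it, -2.01 in cluster 10 and -2.21 in cluster 12. Their part in its member level was not tested. With cells of 1500 or more UMIs only, KO fibroblasts had 4325 CPM, endothelial cells 1728 and mural cells 841.

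The 19 monocyte/macrophage markers were also highest in that library in 4 of these 5 classes, neutrophils being the exception. They summed to 10349 CPM in KO fibroblasts at ligation 72 h and to 135 to 1404 CPM in the other 5 libraries, with none of the 19 at 0 in either library at 72 h. In endothelial cells they summed to 3445 CPM against 118 to 787. Endothelial barcodes of that library with no marker UMI had 212 CPM of the members (143 to 303), against 8174 in those with 1 or more per 100 UMIs. For fibroblasts the same split gave 4175 CPM in 76 barcodes without a marker UMI and 6926 in 589 with 1 or more per 100. Of the 36 Ciita UMIs in these fibroblasts, 26 lay in the 589 barcodes and 0 in the 76, whose low depth limits that 0. Marker-free barcodes had 216 CPM in mural cells against 3358 in those rich in markers, 8 UMIs (216 to 985 CPM) against 7136 CPM in T, NK and innate lymphoid cells, and 516 against 1672 CPM in neutrophils, from 7 to 29 marker-free barcodes each. The members were thus lower without a marker UMI in all 5 classes, least so in fibroblasts, whose marker-free barcodes had a median depth of 698.5 UMIs. In neutrophils the markers summed to 2465 CPM in this library and to 2240.2 to 6162 in the other 5. The part of monocyte/macrophage RNA in these barcodes was not tested.

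**Figure D5:**
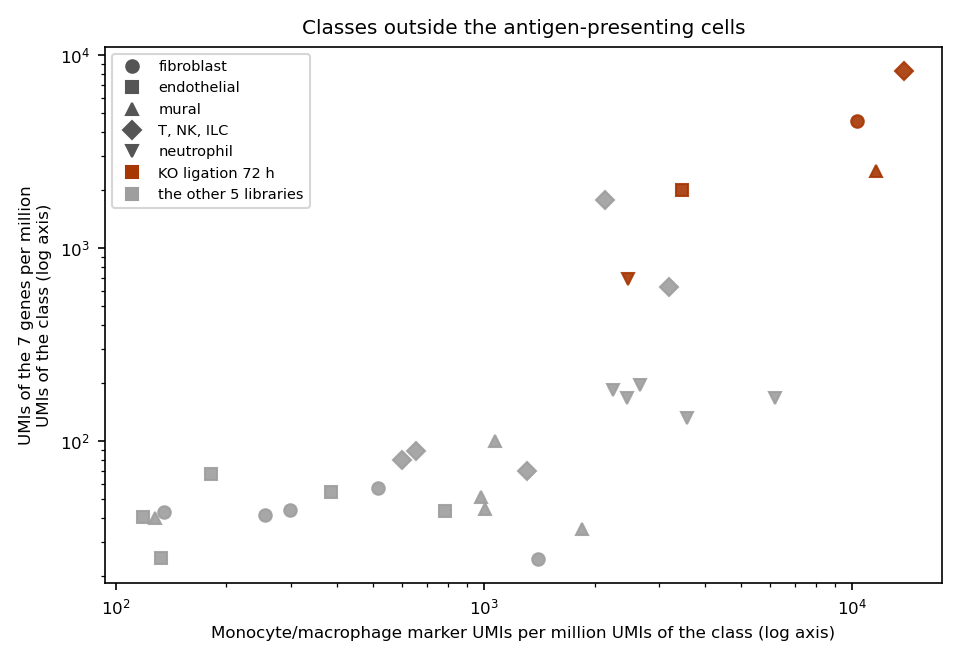
Summed level of the 7 genes against that of 19 monocyte/macrophage markers, both in CPM of the class (log axes), for 5 classes in 6 libraries. The points of KO at ligation 72 h lie above those of the same class in the other 5 libraries, with 4546 CPM of the genes beside 10349 CPM of the markers in fibroblasts.

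Outside the class II family, the genes most like the members were ranked by Pearson correlation with the mean log level of the 7 over 51 profiles of 10 classes and 6 libraries, among 11377 genes. The profiles of a class share its cells, and those of a library its depth, so the values are descriptions only. Pkib (0.93), Napsa (0.93), Ly86 (0.93), Lat2 (0.92) and Fgd2 (0.92) came first, then Pld4, Ms4a4c, Cd86, Rnase6 and Ifi30 (0.89). Napsa encodes an aspartic protease, Ifi30 the lysosomal thiol reductase used in antigen processing, and Cd86 a costimulatory ligand. Among the members themselves the correlation with that mean ran from 0.88 for Ciita to 0.99 for H2-Aa. Each member is part of that mean, which raises its value, so the members cannot be ranked against the genes outside the family.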

How the data were processed

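The authors deposited raw UMI counts for each gene in each cell barcode; Cell Ranger 6.0.0 and mm10 are named in the submitters' processing notes. The annotation and any later filter are not given in the sources used here. Cells needed at least 200 genes and at most 20% mitochondrial UMIs. Scrublet doublet scores were computed in scanpy 1.11.5, and the highest were removed at 0.8% per 1000 cells, since its own threshold marked 0 to 62 cells per library. The 2000 most variable genes, without class II genes, gave 30 components, 20 neighbours and 40 Leiden clusters at resolution 1, of which 3 stayed unnamed, and rebuilt names may differ from the authors'. UMIs were summed per class and library. Levels have exact Poisson, shares Clopper-Pearson and ratios exact conditional 95% intervals, all covering counting error only, and a count of 0 allows 3 counts. Genes needed 50 UMIs over a pair. The ratio procedure was tested on simulated data. The members, lists and named clusters were chosen with earlier results of these data known. The named genes are the members, the genes of the listed pathway groups, and the 10 most alike genes by correlation. The alternatives tried were clustering resolutions, class II genes in the clustering, cell filters, depth, weighting and the sum's members.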

Additional observations from a re-analysis of the deposited data

Results flagged for a closer look

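The difference between KO and WT in the summed level of the 7 genes in monocyte/macrophage cells did not have the same sign at each point. After sham it was -0.15 log2 units, and after ligation 0.58 on the first day (24 h) and 0.11 at 72 h. The dendritic difference after ligation was 0.20 at 24 h but -0.26 at 72 h. These were picked out because the single library of one condition moved one way and that of the other the opposite way. The difference between conditions was not tested, since each has 1 library.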

How the results depend on the processing

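Of 100 alternative values of 10 summed log2 ratios, 31 stayed within their counting interval, 63 moved and 6 reversed. Values follow in 1 order: monocyte/macrophage KO against WT at sham, ligation 24 h and ligation 72 h, then WT ligation 24 h against sham, WT 72 h against 24 h, KO ligation 24 h against sham, KO 72 h against 24 h, then dendritic KO against WT at sham, ligation 24 h and ligation 72 h. Clustering at resolution 0.5 gave -0.42, 0.63, 0.12, -0.66, 1.54, 0.39, 1.02, 0.12, 0.10 and -0.25, and at resolution 2 -0.15, 0.57, 0.13, -1.17, 1.47, -0.44, 1.03, 0.02, 0.21 and -0.26. With class II genes in the clustering they were -0.12, 0.53, 0.14, -1.17, 1.45, -0.51, 1.05, 0.11, 0.14 and -0.25. Without doublet removal they were -0.21, 0.54, 0.19, -1.21, 1.43, -0.47, 1.08, 0.12, 0.18 and -0.25, and without a filter on cells -0.13, 0.58, 0.14, -1.21, 1.48, -0.50, 1.04, 0.0875, 0.20 and -0.26. Cells of 1500 or more UMIs gave -0.15, 0.58, 0.0919, -1.18, 1.47, -0.45, 0.98, 0.01, 0.20 and -0.23. Cells thinned to 1000 UMIs gave 0.24, 0.42, 0.20, -1.16, 1.24, -0.99, 1.02, -0.0174, 0.17 and -0.38, and a mean over cells 0.19, 0.49, 0.17, -1.25, 1.27, -0.95, 0.95, -0.0193, 0.21 and -0.54. Without Cd74 and H2-Ab1 they were -0.15, 0.42, 0.18, -1.25, 1.41, -0.68, 1.17, 0.01, 0.15 and -0.24. Equal weight for each cluster gave -0.44, 0.47, -0.0788, -1.27, 1.70, -0.52, 0.69, 0.01, 0.20 and -0.26. The cause of these shifts was not tested. Chosen after seeing the data, leaving out cluster 6 gave 0.13 for KO against WT at 72 h and 1.01 for KO 72 h against 24 h. For KO against WT fibroblasts at 72 h, 7.53 became 7.49 with cells of 1500 or more UMIs and 7.25 in barcodes without a monocyte/macrophage marker UMI, and the endothelial 5.53 became 5.32 and 2.22. No paired analysis was possible because each group has 1 library. Depth limits Ciita most, which rests on 52 UMIs in WT monocyte/macrophage cells at ligation 24 h.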
